A study of Mus musculus with 18 samples.

Results

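Alpha and beta tubulin isotypes were measured by RNA sequencing of the mouse heart apex. The genes were the 10 rows of the count table named Tuba1a, Tuba1b, Tuba1c, Tuba4a, Tuba8, Tubb2a, Tubb2b, Tubb3, Tubb4b and Tubb6, chosen by name from 54532 rows, and all 10 passed the filter on low counts. The 18 libraries formed 6 groups of 3 in 2 batches that the labels call LC and LA. Batch LC held hearts labelled Lmna shRNA with lamin C (lamin C hearts), hearts labelled Lmna shRNA alone (shRNA hearts) and control hearts. Batch LA held hearts labelled Lmna shRNA with lamin A (lamin A hearts), shRNA hearts and control hearts. The design text names rAAV9, an adeno-associated virus serotype that reaches the heart well, as the delivery platform, and Lmna knockdown as the model of dilated cardiomyopathy. The genotype label was WT in every library. The labels give the controls no treatment beyond the word control, and name no strain, sex or age, no promoter for the shRNA or the lamin, and no number of animals per library. The p-values below therefore measure the spread between libraries.

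Microtubules are built from dimers of 1 alpha and 1 beta tubulin, and mammals make each from several genes whose proteins differ mainly in the acidic tail at the end. In cardiomyocytes microtubules carry cargo, surround the nucleus and bear load during contraction, and removal of the last tyrosine of alpha tubulin by vasohibins is known to stiffen the cell. Tuba4a and Tuba8 are known from striated muscle among other tissues. Tuba1a, Tubb2a, Tubb2b and Tubb3 are best known from neurons, Tuba1b, Tuba1c and Tubb4b are widely expressed, and Tubb6 is known to be raised in regenerating muscle. The nascent beginning of tubulin proteins is also read by Ttc5, which starts decay of tubulin mRNA when free dimers are plentiful.

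The ends of the coding sequences are shown because the last codon of an alpha gene sets whether the protein is made with a final tyrosine. Beta genes are shown beside them. They are the last 60 coding bases before the stop codon in GRCm38 (GENCODE M21), on the coding strand, with the last codon in capitals. Tuba4a lies on the minus strand at chr1:75215625-75215684 and Tuba8 on the plus strand at chr6:121226017-121226076. Tubb2a lies on the minus strand at chr13:34074471-34074530, Tubb3 on the plus strand at chr8:123421620-123421679 and Tubb4b on the minus strand at chr2:25222311-25222370. Each stretch lies within 1 exon.
Tuba4a: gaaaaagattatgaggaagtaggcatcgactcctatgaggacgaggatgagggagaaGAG
Tuba8: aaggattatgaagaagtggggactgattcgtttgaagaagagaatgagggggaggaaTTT
Tubb2a: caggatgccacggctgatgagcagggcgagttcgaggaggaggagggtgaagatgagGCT
Tubb3: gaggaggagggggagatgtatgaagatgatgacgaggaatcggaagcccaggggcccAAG
Tubb4b: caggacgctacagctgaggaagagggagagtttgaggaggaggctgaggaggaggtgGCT
Tuba4a ended in GAG, a glutamate codon, and Tuba8 in TTT, a phenylalanine codon, so neither mRNA encodes a final tyrosine. The other alpha genes, not shown, do encode it: Tuba1a and Tuba1b ended in TAC and Tuba1c in TAT, both tyrosine codons. The first 12 coding bases, whose protein product Ttc5 reads, were the following in 1 alpha and 1 beta gene, with the fourth codon in capitals.
Tuba4a: atgcgcgagTGC
Tubb2a: atgcgcgagATC
In both the first 3 codons were the same and the fourth differed.

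The coding sequences resemble each other, which bears on the counts. Over 10 pairs, the alpha genes shared between 78.8% and 98.3% of aligned coding bases, and over 10 pairs the beta genes shared between 80.7% and 96.5%. The highest values were for Tuba1a with Tuba1b and for Tubb2a with Tubb2b. Of all 100-base windows of the annotated transcript, 65.1% in Tuba1a, 69.5% in Tuba1b and 53.4% in Tuba1c occurred also in another gene or pseudogene. That share was 36.9% in Tubb2a, 27.7% in Tubb2b and 29.2% in Tubb4b, and it was 0% in Tuba4a, Tuba8, Tubb3 and Tubb6. The sources used here do not say how reads that match several genes were counted, and the split of counts among Tuba1a, Tuba1b and Tuba1c, and between Tubb2a and Tubb2b, is uncertain. Rows that overlap a member on the same strand held few counts: Gm49450, which overlaps Tuba1a and Tuba1b, held at most 24 in any library, and Gm20388, which overlaps Tubb3, held 0 in all. Stk16 overlaps Tuba4a on the other strand and held 667 to 1409 counts per library. Nor do the sources say whether counting used the strand or how reads on overlapping rows were treated. How far overlapping rows change the counts of the members, Tuba4a with Stk16 included, is therefore not known.

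Libraries held 31418657 to 41259968 counts. Levels below are the authors' FPKM (fragments per kilobase of gene length, scaled for library size), which compare genes per length. Fold changes are edgeR log2 fold changes ± SE from the counts, and a gene was called where the adjusted p over all 17876 genes tested was under 0.05. Lmna itself, which the shRNA names, was not lower in shRNA hearts. It averaged 21.4 ± 2.05 FPKM in shRNA hearts and 20.7 ± 0.728 FPKM in control hearts of batch LC, and 21.1 ± 0.709 and 19.6 ± 0.744 FPKM in shRNA and control hearts of batch LA (SD, n = 3 each). It averaged 210 ± 27.2 FPKM in lamin C hearts and 88.8 ± 4.59 FPKM in lamin A hearts (SD, n = 3 each). Directions below are those of the libraries as labelled.

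Markers of other cell types moved with the groups, as did cardiomyocyte markers. With shRNA, 9 of 9 cardiomyocyte markers fell in each batch, from a list with Myh6, Tnnt2 and Ttn, while 9 of 9 fibroblast, 8 of 9 macrophage and 8 of 8 proliferation markers rose. Of 8 endothelial markers 7 fell and 1 rose. These counts stand against all genes tested, of which 62.9% and 61.4% were called with shRNA in batches LC and LA. Higher calls were 33.3% and 32.4% of all genes, and lower calls 29.6% and 29%. The summed cardiomyocyte level, in CPM (counts scaled to a common TMM-adjusted library size), was 67900 to 70500 in lamin C, 33100 to 38600 in shRNA and 81100 to 85000 in control hearts of batch LC, and 50800 to 53800 in lamin A, 35900 to 37400 in shRNA and 78700 to 81200 in control hearts of batch LA. The summed fibroblast level was 2560 to 3810, 8960 to 13500 and 1370 to 1770 CPM in lamin C, shRNA and control hearts of batch LC, and 8350 to 11000, 12000 to 12700 and 1660 to 1820 CPM in lamin A, shRNA and control hearts of batch LA. The summed macrophage level was 684 to 817, 1510 to 1690 and 385 to 478 CPM in the same order in batch LC, and 1300 to 1390, 1440 to 1600 and 436 to 457 CPM in batch LA. In the same order the summed proliferation level was 28.1 to 34, 24.5 to 69.8 and 15.8 to 23.9 CPM in batch LC. In batch LA it was 53 to 66.8, 62.5 to 74.1 and 20.2 to 22.5 CPM. The lowest shRNA library of batch LC thus lay just above the highest control library in that sum. No marker of these types was at 0 in any group. Mitochondrially encoded genes took 23.2% to 24.8% of counts in lamin C, 13% to 15.6% in shRNA and 25.2% to 25.5% in control hearts of batch LC, and 20.3% to 22.6% in lamin A, 14.1% to 15.1% in shRNA and 26.4% to 27% in control hearts of batch LA. In such bulk tissue, fewer cells of a type and less RNA per cell cannot be told apart, and the part of these shifts in the tubulin results was not tested.

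The first question was what Lmna shRNA did to tubulin expression. Isotypes moved in opposite directions: Tuba4a, the leading alpha isotype of control hearts, and Tuba8, a second muscle alpha isotype, fell, while Tuba1a, Tuba1b, Tuba1c, Tubb2a, Tubb2b, Tubb3 and Tubb6 rose. In batch LC 7 of the 10 isotypes were called higher, 2 lower and 1 neither, where 62.9% of all genes were called, 33.3% higher and 29.6% lower. In batch LA 8 were called higher and 2 lower, where 61.4% of all genes were called, 32.4% higher and 29% lower. The share of isotypes called was thus above that of all genes, among which calls were also the rule. The 10 genes were chosen with earlier results of these data known, so this excess cannot be read as a test. The median log2 fold change of the 10 isotypes was 0.86 in batch LC and 1.17 in batch LA, against 0.05 over all genes in each batch. All 9 calls of batch LC and all 10 of batch LA were kept under every alternative setting and with each library left out.

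**Figure D1:**
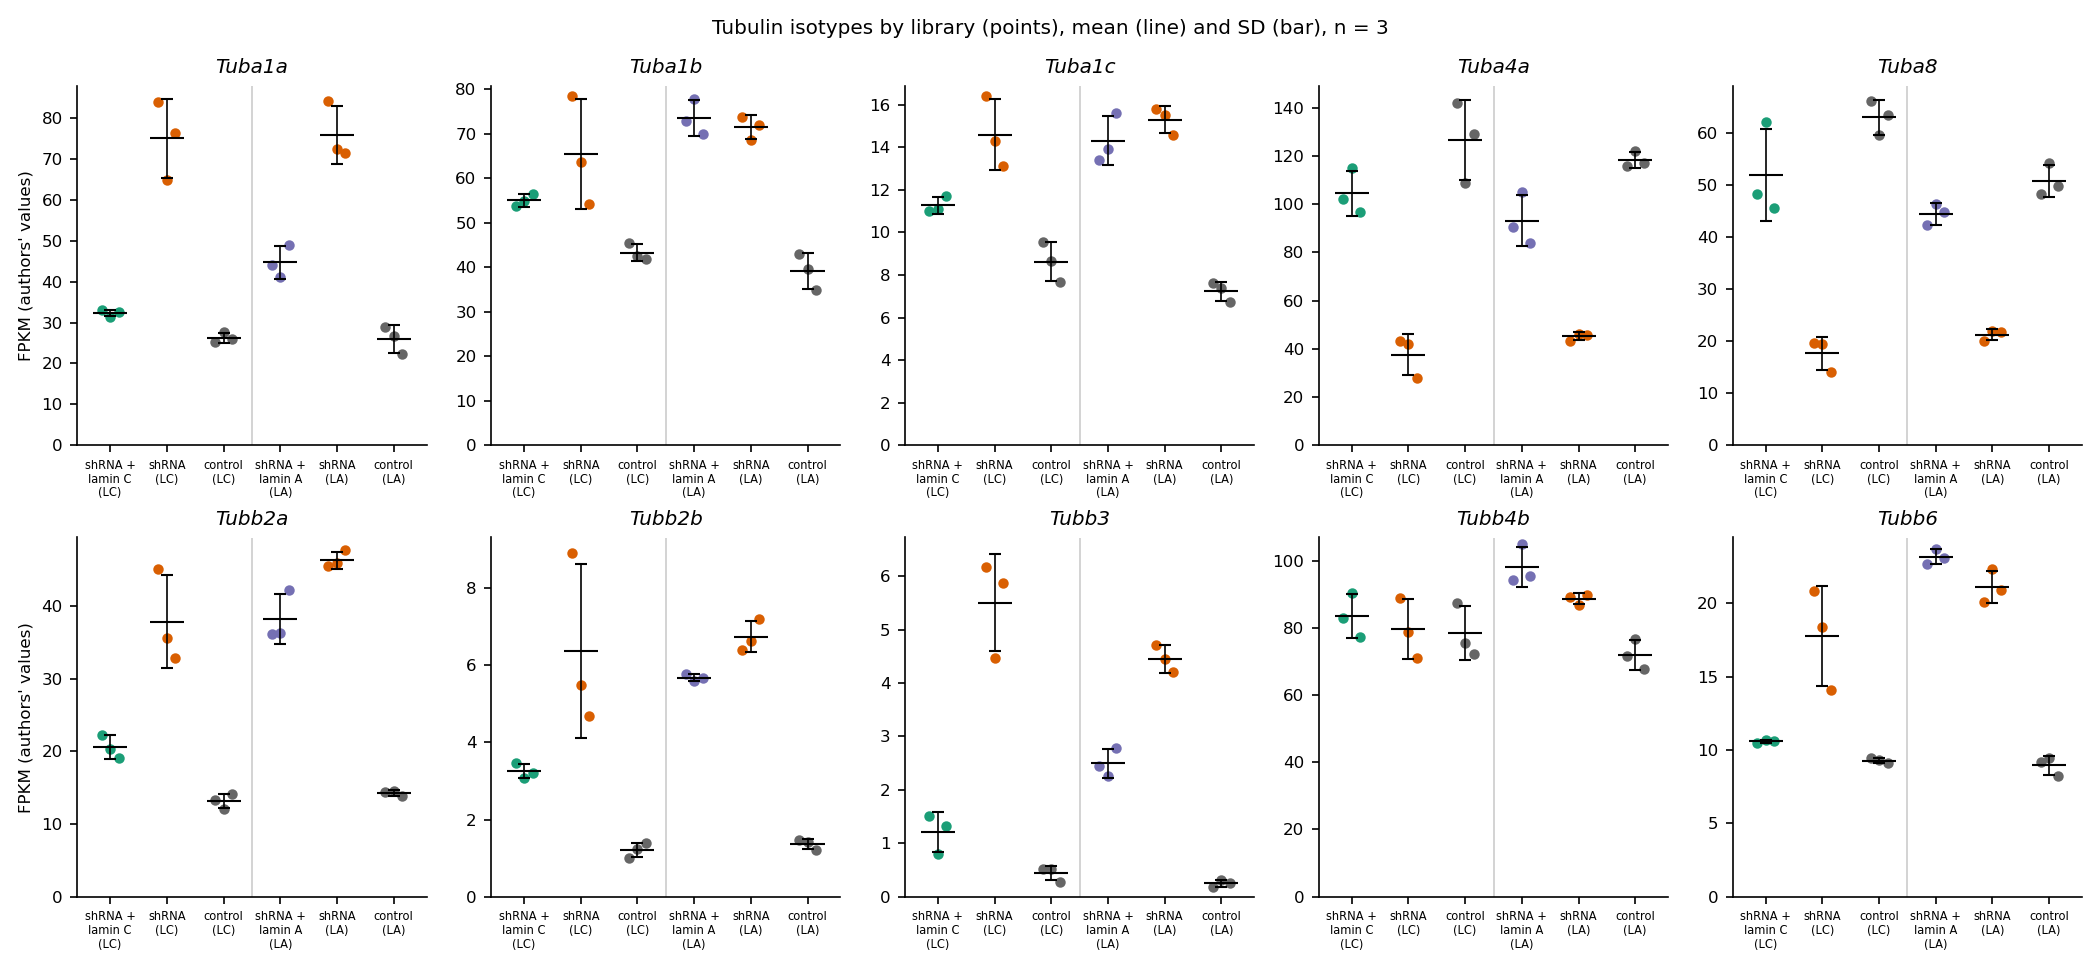
Each panel plots 1 tubulin gene, with the authors' FPKM on a linear vertical axis from 0 and the 6 groups along the horizontal axis, lamin, shRNA and control hearts of batch LC left of those of batch LA. Points are libraries, lines are means and bars are SD (n = 3). Tuba4a and Tuba8 were lowest in shRNA hearts, Tubb4b stayed between 67.8 and 105 FPKM in all 18 libraries, and the other genes were lowest in control hearts.

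Tuba4a had 43.1, 41.8 and 27.8 FPKM in shRNA hearts, against 142, 109 and 129 FPKM in control hearts of batch LC. In batch LA it had 43.4, 46.3 and 45.9 FPKM in shRNA hearts, against 116, 122 and 117 FPKM in control hearts. All 6 shRNA libraries lay below all 6 control libraries, and replicate 3 of the shRNA hearts of batch LC was the lowest. The log2 fold changes were -1.75 ± 0.13 and -1.38 ± 0.13 in batches LC and LA (edgeR adjusted p = 4.7e-10 and 1.32e-08). Tuba8 had 19.6, 19.4 and 14 FPKM in shRNA hearts, against 66.3, 59.6 and 63.5 FPKM in control hearts of batch LC. In batch LA it had 20, 21.9 and 21.8 FPKM in shRNA hearts, against 48.4, 54.3 and 49.9 FPKM in control hearts. The groups did not overlap in either batch, and the same shRNA library was the lowest. Against control hearts its log2 fold changes were -1.83 ± 0.11 and -1.25 ± 0.11 in batches LC and LA (edgeR adjusted p = 4.58e-11 and 8.88e-09).

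Tuba1a, the alpha isotype best known from neurons, went the other way. It had 84.1, 64.8 and 76.3 FPKM in shRNA hearts, against 25.3, 27.6 and 26 FPKM in control hearts of batch LC, and 84.2, 72.4 and 71.4 FPKM in shRNA hearts, against 28.8, 26.8 and 22.3 FPKM in control hearts of batch LA. Every shRNA library was more than double any control library of its batch. The log2 fold changes were 1.52 ± 0.1 and 1.56 ± 0.1 in batches LC and LA (edgeR adjusted p = 1.16e-10 and 9.76e-11). Tuba1b had 78.5, 63.7 and 54.1 FPKM in shRNA hearts, against 45.5, 42.5 and 41.8 FPKM in control hearts of batch LC, and 73.8, 68.6 and 71.9 FPKM in shRNA hearts, against 43, 39.6 and 34.8 FPKM in control hearts of batch LA. The groups did not overlap, and the shRNA hearts of batch LC were the most spread of these groups. Its log2 fold changes were 0.6 ± 0.1 and 0.88 ± 0.1 in batches LC and LA (edgeR adjusted p = 2.1e-05 and 2.03e-07). Tuba1c ranged from 13.1 to 16.4 FPKM in shRNA hearts and from 7.68 to 9.55 FPKM in control hearts of batch LC, and from 14.6 to 15.8 FPKM and from 6.74 to 7.6 FPKM in shRNA and control hearts of batch LA. This gave log2 fold changes of 0.77 ± 0.09 and 1.09 ± 0.09 in batches LC and LA (edgeR adjusted p = 2.55e-07 and 2.38e-09).

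Among beta isotypes, Tubb3, the class used as a neuronal marker, rose the most. It had 6.17, 4.47 and 5.87 FPKM in shRNA hearts, against 0.514, 0.514 and 0.282 FPKM in control hearts of batch LC, where the control libraries held 15 to 30 counts. In batch LA it had 4.71, 4.44 and 4.2 FPKM in shRNA hearts, against 0.183, 0.308 and 0.265 FPKM in control hearts, where the control libraries held 11 to 18 counts. The shRNA libraries lay far above the control libraries in both batches, but the low control counts make the size of the rise less precise than its direction. The log2 fold changes were 3.65 ± 0.23 and 4.15 ± 0.25 in batches LC and LA (edgeR adjusted p = 5.95e-11 and 4.38e-11). The summed level of 9 Schwann cell and neuron markers was 17.1 to 17.9 CPM in shRNA hearts and 14.7 to 18.3 CPM in control hearts of batch LC, and 17 to 17.1 CPM in shRNA hearts and 18.6 to 21.1 CPM in control hearts of batch LA. 1 of the 9 was at 0 in control hearts of batch LC. Of these markers 8 were tested; 2 rose and 1 fell in batch LC, and 2 rose and 2 fell in batch LA.

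Tubb2a had 45.2, 35.6 and 32.9 FPKM in shRNA hearts, against 13.3, 12.1 and 14.1 FPKM in control hearts of batch LC, and 45.5, 45.9 and 47.7 FPKM in shRNA hearts, against 14.4, 14.6 and 13.8 FPKM in control hearts of batch LA. The groups were far apart, and the log2 fold changes were 1.53 ± 0.1 and 1.71 ± 0.1 in batches LC and LA (edgeR adjusted p = 7.79e-11 and 1.92e-11). Tubb2b, its close copy, was expressed at a lower level, with 8.92, 5.5 and 4.68 FPKM in shRNA hearts, against 1.01, 1.24 and 1.39 FPKM in control hearts of batch LC, and 6.4, 6.64 and 7.2 FPKM in shRNA hearts, against 1.46, 1.41 and 1.22 FPKM in control hearts of batch LA. Replicate 1 of the shRNA hearts of batch LC was the highest library, and no shRNA library overlapped the controls. On the log2 scale its changes were 2.41 ± 0.19 and 2.31 ± 0.18 in batches LC and LA (edgeR adjusted p = 1.26e-09 and 1.82e-09). Tubb6 had 20.8, 18.4 and 14.1 FPKM in shRNA hearts, against 9.44, 9.3 and 9.08 FPKM in control hearts of batch LC, and 20.1, 22.3 and 20.9 FPKM in shRNA hearts, against 9.18, 9.47 and 8.19 FPKM in control hearts of batch LA. The controls were tightly grouped and below every shRNA library, with log2 fold changes of 0.95 ± 0.1 and 1.24 ± 0.1 in batches LC and LA (edgeR adjusted p = 6.08e-08 and 1.33e-09).

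Tubb4b, the most abundant beta isotype in every group, moved least. It had 89, 78.7 and 71.1 FPKM in shRNA hearts, against 87.5, 75.4 and 72.2 FPKM in control hearts of batch LC, and these groups overlapped over nearly their whole range. The log2 fold change was 0.03 ± 0.08 (edgeR adjusted p = 0.767), but scaling by library totals gave 0.46, which was called. In batch LA it had 89.3, 86.8 and 89.8 FPKM in shRNA hearts, against 71.5, 76.6 and 67.8 FPKM in control hearts, with no overlap and a log2 fold change of 0.31 ± 0.08 (edgeR adjusted p = 0.00317). The difference between the batches in the shRNA effect was -0.28 ± 0.12 (edgeR adjusted p = 0.752). That difference was called for 0 of the 10 isotypes by edgeR, with 5 at an unadjusted p under 0.05, all toward lower values in batch LC, and for 0 by DESeq2; over all genes 0.00559% were called.

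Promoter sequence is shown for Tubb2a, which rose, and Tubb4b, which moved least, as beta genes whose RefSeq and GENCODE starts lie close together. The windows are the 250 bases before the RefSeq start in GRCm38.p6, both on the minus strand, at chr13:34078009-34078258 for Tubb2a and chr2:25224703-25224952 for Tubb4b. Capitals mark matches, on either strand, to the motif CCAAT, to the GC box GGGCGG and to the box TATAAA, with no overlap between matches in these windows.
Tubb2a: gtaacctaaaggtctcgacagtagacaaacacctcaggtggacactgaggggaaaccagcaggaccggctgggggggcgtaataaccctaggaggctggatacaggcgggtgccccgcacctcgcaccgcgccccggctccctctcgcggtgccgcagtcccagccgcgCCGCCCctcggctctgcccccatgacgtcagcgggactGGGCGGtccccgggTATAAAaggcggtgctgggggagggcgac
Tubb4b: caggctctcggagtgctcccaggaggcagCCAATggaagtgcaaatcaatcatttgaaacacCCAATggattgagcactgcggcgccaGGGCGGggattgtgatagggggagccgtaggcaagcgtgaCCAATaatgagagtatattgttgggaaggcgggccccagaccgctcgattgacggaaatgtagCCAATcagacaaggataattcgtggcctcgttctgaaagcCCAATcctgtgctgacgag
The Tubb4b window held CCAAT 5 times and GGGCGG once, and the Tubb2a window held GGGCGG 2 times and TATAAA once. RefSeq windows were found for 8 of the 10 genes, of which 4 held CCAAT, 6 held GGGCGG, 1 held TATAAA and 0 held a CArG box, the motif of serum response factor. Of 32851 such windows 33.8% held CCAAT, 32.7% held GGGCGG, 12.4% held TATAAA and 1.5% held a CArG box. CCAAT was held by Tuba1a, Tuba1c and Tubb3, which rose with shRNA, and by Tubb4b. It was not held by Tuba1b and Tubb2a, which also rose, or by Tuba4a and Tuba8, which fell. These are matches of letters and not measured binding.

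The second question was how far lamin C or lamin A, given with the shRNA, moved tubulin expression. Lamin C hearts differed from shRNA hearts in 9 of 10 isotypes, with 2 called higher and 7 lower, where 54.1% of all genes were called, 25.7% higher and 28.4% lower. Lamin A hearts differed from shRNA hearts in 5 isotypes, with 2 called higher and 3 lower, where 29.8% of all genes were called, 16.1% higher and 13.7% lower. The median log2 fold change of the isotypes was -0.57 with lamin C and -0.03 with lamin A, against -0.04 and 0 over all genes. In both, the 2 isotypes that rose were Tuba4a and Tuba8, and Tuba1a, Tubb2a and Tubb3 were among those that fell.

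Tuba4a had 102, 115 and 96.8 FPKM in lamin C hearts, and 90.5, 105 and 84.1 FPKM in lamin A hearts, all above every shRNA library of their batch. The log2 fold change against shRNA hearts was 1.47 ± 0.13 with lamin C (edgeR adjusted p = 1.01e-08) and 1.04 ± 0.13 with lamin A (edgeR adjusted p = 5.07e-06). Tuba8 had 48.3, 62.2 and 45.6 FPKM in lamin C hearts, and 42.3, 46.5 and 44.9 FPKM in lamin A hearts, again with no overlap with the shRNA hearts. Against shRNA hearts its log2 fold changes were 1.55 ± 0.11 with lamin C and 1.07 ± 0.11 with lamin A (edgeR adjusted p = 1.05e-09 and 1.05e-06). Tuba1a had 33, 31.4 and 32.6 FPKM in lamin C hearts, and 44.2, 41.1 and 49.1 FPKM in lamin A hearts, all below the shRNA libraries. It fell by 1.22 on the log2 scale with lamin C and by 0.77 with lamin A (edgeR adjusted p = 4.93e-09 and 9.42e-06).

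Tuba1b had 53.7, 54.8 and 56.5 FPKM in lamin C hearts, overlapping the low end of the shRNA hearts of batch LC, and 72.9, 77.8 and 69.9 FPKM in lamin A hearts, overlapping the shRNA hearts of batch LA. Its log2 fold change was -0.26 ± 0.1 with lamin C (edgeR adjusted p = 0.0315), a call lost without replicate 1 of the shRNA hearts or replicate 1 or 2 of the lamin C hearts, where the edgeR adjusted p was 0.0729 to 0.315. With lamin A it was 0.04 ± 0.1 (edgeR adjusted p = 0.805). Tuba1c ranged from 11 to 11.7 FPKM in lamin C hearts, below the shRNA hearts, and from 13.4 to 15.6 FPKM in lamin A hearts, overlapping them. Its log2 fold changes were -0.38 ± 0.09 with lamin C and -0.1 ± 0.08 with lamin A (edgeR adjusted p = 0.000825 and 0.42), the second being -0.3 and called under scaling by library totals.

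Of the beta isotypes, Tubb3 had 1.51, 0.802 and 1.32 FPKM in lamin C hearts, and 2.44, 2.25 and 2.79 FPKM in lamin A hearts. Both sets lay below the shRNA hearts and above the control hearts of their batch. It fell by 2.2 on the log2 scale with lamin C and by 0.84 with lamin A (edgeR adjusted p = 1.64e-08 and 0.00158). Tubb2a had 22.3, 20.4 and 19.1 FPKM in lamin C hearts, and 36.2, 36.3 and 42.3 FPKM in lamin A hearts, below the shRNA hearts in each batch. It fell by 0.89 with lamin C (edgeR adjusted p = 1.84e-07) and by 0.28 with lamin A (edgeR adjusted p = 0.027) on the log2 scale. The lamin A call was lost without any 1 of the 3 shRNA libraries or without replicate 1 or 2 of the lamin A hearts, where the edgeR adjusted p was 0.052 to 0.116. Tubb2b had 3.47, 3.09 and 3.22 FPKM in lamin C hearts, and 5.78, 5.59 and 5.68 FPKM in lamin A hearts, also below the shRNA hearts. Its log2 fold changes were -0.98 ± 0.17 with lamin C (edgeR adjusted p = 5.47e-05) and -0.25 ± 0.16 with lamin A (edgeR adjusted p = 0.26). The lamin A value was called under scaling by library totals (-0.45, edgeR adjusted p = 0.0308) and with the compared groups alone (-0.26, edgeR adjusted p = 0.0196).

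Tubb6 fell with lamin C and was not called with lamin A. It had 10.5, 10.7 and 10.6 FPKM in lamin C hearts, all below the shRNA hearts of batch LC, and 22.7, 23.7 and 23.1 FPKM in lamin A hearts, all slightly above the shRNA hearts of batch LA. Its log2 fold change was -0.75 ± 0.1 with lamin C (edgeR adjusted p = 1.61e-06) and 0.13 ± 0.09 with lamin A (edgeR adjusted p = 0.302). Tubb4b had 82.9, 90.3 and 77.3 FPKM in lamin C hearts, overlapping the shRNA hearts, and 94.1, 105 and 95.5 FPKM in lamin A hearts, above them. Its log2 fold changes were 0.06 ± 0.08 with lamin C and 0.15 ± 0.08 with lamin A (edgeR adjusted p = 0.537 and 0.204). Scaling by library totals gave -0.25 and -0.06, of which the lamin C value was called. The same scaling turned the uncalled lamin A values of Tuba1b and Tubb6 to -0.16 and -0.07.

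The lamin hearts were then set against the controls of their own batch, a comparison that shares the lamin libraries with the previous one and the control libraries with the first. In lamin C hearts 6 isotypes were called higher than in control hearts, 0 lower and 4 neither, where 15% of all genes were called, 8.87% higher and 6.18% lower. The count of 0 lower from edgeR stood at 2 with an unadjusted p under 0.05 and at 0 by DESeq2. In lamin A hearts 8 were called higher and 1 lower, where 46.2% of all genes were called, 24.1% higher and 22.1% lower. The median log2 fold change of the isotypes was 0.33 in lamin C hearts and 0.95 in lamin A hearts, against 0 and 0.02 over all genes.

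The muscle alpha isotypes were closer to control in both kinds of lamin hearts than in shRNA hearts. In lamin C hearts both overlapped the control hearts, and in lamin A hearts neither did. The share of all genes with such an overlap was not computed. Control hearts of batch LC were the more spread in Tuba4a, at 109 to 142 FPKM, and the log2 changes given below were of similar size with both lamins. Tuba4a ranged from 84.1 to 105 FPKM in lamin A hearts and from 116 to 122 FPKM in their controls. Tuba8 ranged from 42.3 to 46.5 FPKM and from 48.4 to 54.3 FPKM in the same groups. Tuba4a was -0.28 ± 0.12 in lamin C hearts (edgeR adjusted p = 0.148) and -0.34 ± 0.12 in lamin A hearts (edgeR adjusted p = 0.0301). The lamin A call was lost without any 1 of the 3 control libraries or without replicate 1 or 3 of the lamin A hearts, where the edgeR adjusted p was 0.0519 to 0.128, and under scaling by library totals, where the value was -0.11. Tuba8 was -0.28 ± 0.11 in lamin C hearts (edgeR adjusted p = 0.0978), with an adjusted p of 0.00947 without replicate 2 of the lamin C hearts. In lamin A hearts it was -0.19 ± 0.11 (edgeR adjusted p = 0.174), turning to 0.05 under scaling by library totals and called with the compared groups alone (-0.18, edgeR adjusted p = 0.0202). With no filter on low counts the lamin C values of Tuba4a and Tuba8 were both -0.26 and called (edgeR adjusted p = 0.00201 and 0.00438).

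The isotypes that shRNA hearts held at raised levels differed more between lamin C and lamin A hearts, each set against its own controls. Tubb3 was 1.45 ± 0.26 above control in lamin C hearts and 3.31 ± 0.26 in lamin A hearts on the log2 scale (edgeR adjusted p = 0.000839 and 6.75e-09). Tubb2b was 1.43 ± 0.2 and 2.06 ± 0.19 above control in lamin C and lamin A hearts (edgeR adjusted p = 8.33e-05 and 3.38e-08). Tubb2a was 0.64 ± 0.1 and 1.43 ± 0.1 above control (edgeR adjusted p = 0.000243 and 1.17e-09). For Tubb6 the value was 0.19 ± 0.1 in lamin C hearts (edgeR adjusted p = 0.215; 0.31 and called under scaling by library totals) and 1.38 ± 0.1 in lamin A hearts (edgeR adjusted p = 1.59e-09). Tuba1a was 0.3 ± 0.1 and 0.79 ± 0.1 above control (edgeR adjusted p = 0.0492 and 2.37e-06). Its lamin C call was lost without any 1 of the 6 libraries compared, where the edgeR adjusted p was 0.062 to 0.143, and with RLE size factors (edgeR adjusted p = 0.0501) and limma (adjusted p = 0.0589 and 0.0558). Tuba1b was 0.35 ± 0.1 and 0.91 ± 0.1 above control (edgeR adjusted p = 0.0196 and 2.96e-07), and its lamin C call was lost without control replicate 2 or 3 or lamin C replicate 3, where the edgeR adjusted p was 0.0582 to 0.0695. Tuba1c was 0.38 ± 0.09 and 0.99 ± 0.09 above control (edgeR adjusted p = 0.00613 and 3.18e-08). Tubb4b was 0.09 ± 0.08 in lamin C hearts and 0.45 ± 0.08 in lamin A hearts (edgeR adjusted p = 0.502 and 0.000159).

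**Figure D2:**
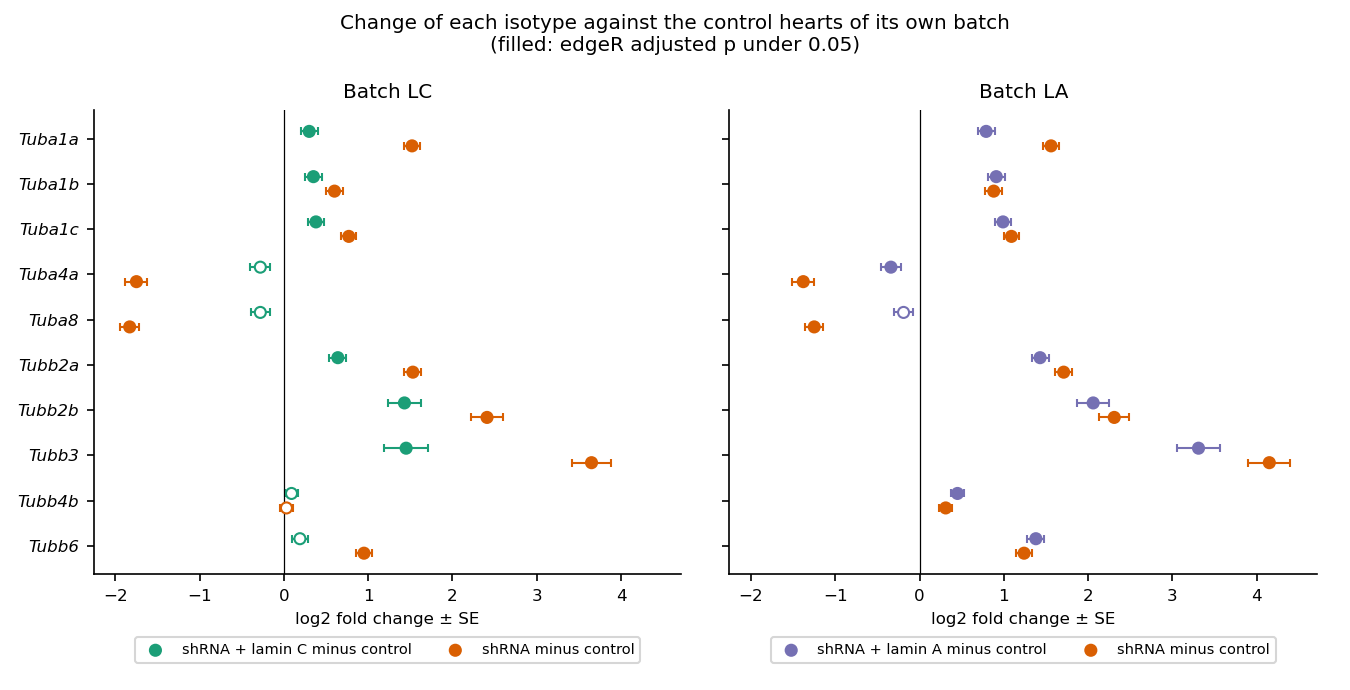
Log2 fold changes against the control hearts of the same batch (horizontal axis) for the 10 isotypes (vertical axis), with lamin hearts drawn above shRNA hearts in each row and batch LC left of batch LA. Bars are SE and filled points have an edgeR adjusted p under 0.05. Tuba4a and Tuba8 lay between -0.19 and -0.34 in lamin hearts of both kinds, whereas Tubb6 lay at 0.19 with lamin C and 1.38 with lamin A.

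Lamin C was given only in batch LC and lamin A only in batch LA, so the lamins were compared through the shRNA hearts of each batch. A batch that changes the response cannot be told apart from the lamin. For Lmna itself the lamin C effect minus the lamin A effect was 1.21 ± 0.12 on the log2 scale (edgeR adjusted p = 3.6e-06). The level of Lmna and the kind of lamin therefore cannot be told apart either. The lamin C effect minus the lamin A effect was called for 6 isotypes, 1 higher and 5 lower, where 18.7% of all genes were called, 8.84% higher and 9.9% lower. The same difference was called lower for 8 of 9 fibroblast and 8 of 9 macrophage markers and higher for 6 of 9 cardiomyocyte markers, and their part in the result was not tested. Tubb3 differed by -1.36 ± 0.27 on the log2 scale (edgeR adjusted p = 0.00144), Tubb6 by -0.89 ± 0.13 (edgeR adjusted p = 0.000154) and Tubb2a by -0.61 ± 0.13 (edgeR adjusted p = 0.00321). These 3 differences were called under every alternative setting and with each library left out. Tubb2b differed by -0.73 ± 0.23, Tuba1a by -0.46 ± 0.14 and Tuba8 by 0.49 ± 0.16 (edgeR adjusted p = 0.0321, 0.0266 and 0.0349). For Tuba8 the shRNA effect in batch LC minus that in batch LA was -0.58 ± 0.16 (edgeR unadjusted p = 0.00157, adjusted p = 0.62), so its shRNA reference was lower against control in batch LC. The Tubb2b call was lost without any of 7 libraries (shRNA replicate 1 and lamin C replicates 2 and 3 of batch LC, shRNA replicates 1 and 2 and lamin A replicates 1 and 3 of batch LA), at an edgeR adjusted p of 0.0596 to 0.0783. The Tuba1a call was lost without any of 5 (shRNA replicate 1 and lamin C replicate 2 of batch LC, shRNA replicates 2 and 3 and lamin A replicate 3 of batch LA), at 0.0638 to 0.0823. The Tuba8 call was lost without any of 6 (shRNA replicate 3 and lamin C replicate 2 of batch LC, shRNA replicates 2 and 3 and lamin A replicates 1 and 3 of batch LA), at 0.0632 to 0.119. The Tuba8 call was also lost under scaling by library totals (0.37, edgeR adjusted p = 0.0773) and with the compared groups alone (edgeR adjusted p = 0.0554), and the Tubb2b call with limma on either FPKM scale (adjusted p = 0.0589 and 0.061) and with the compared groups alone (edgeR adjusted p = 0.0514). Tuba4a differed by 0.43 ± 0.18, Tuba1b by -0.29 ± 0.14, Tuba1c by -0.29 ± 0.12 and Tubb4b by -0.08 ± 0.12 (edgeR adjusted p = 0.0953, 0.147, 0.108 and 0.699). Scaling by library totals gave -0.4 for both Tuba1b and Tuba1c, which was called (edgeR adjusted p = 0.0395 and 0.0214), and with no filter Tuba1b and Tuba4a were called (edgeR adjusted p = 0.0239 and 0.000228). Without shRNA replicate 3 of batch LC, Tuba1b and Tuba1c had edgeR adjusted p of 0.0193 and 0.0437, and without shRNA replicate 1 of that batch Tuba4a had 0.0461.

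The same comparison against the controls, the lamin C value minus the lamin A value, was called lower for 7 isotypes and higher for 0, where 7.35% of all genes were called lower and 7.29% higher. The count of 0 from edgeR stood at 0 also with an unadjusted p under 0.05 and by DESeq2. Tubb6 differed by -1.18 ± 0.14 and Tubb3 by -1.86 ± 0.39 (edgeR adjusted p = 4.57e-05 and 0.00371), whereas Tuba4a stood at 0.06 ± 0.18 and Tuba8 at -0.09 ± 0.15 (edgeR adjusted p = 0.858 and 0.765).

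**Figure D3:**
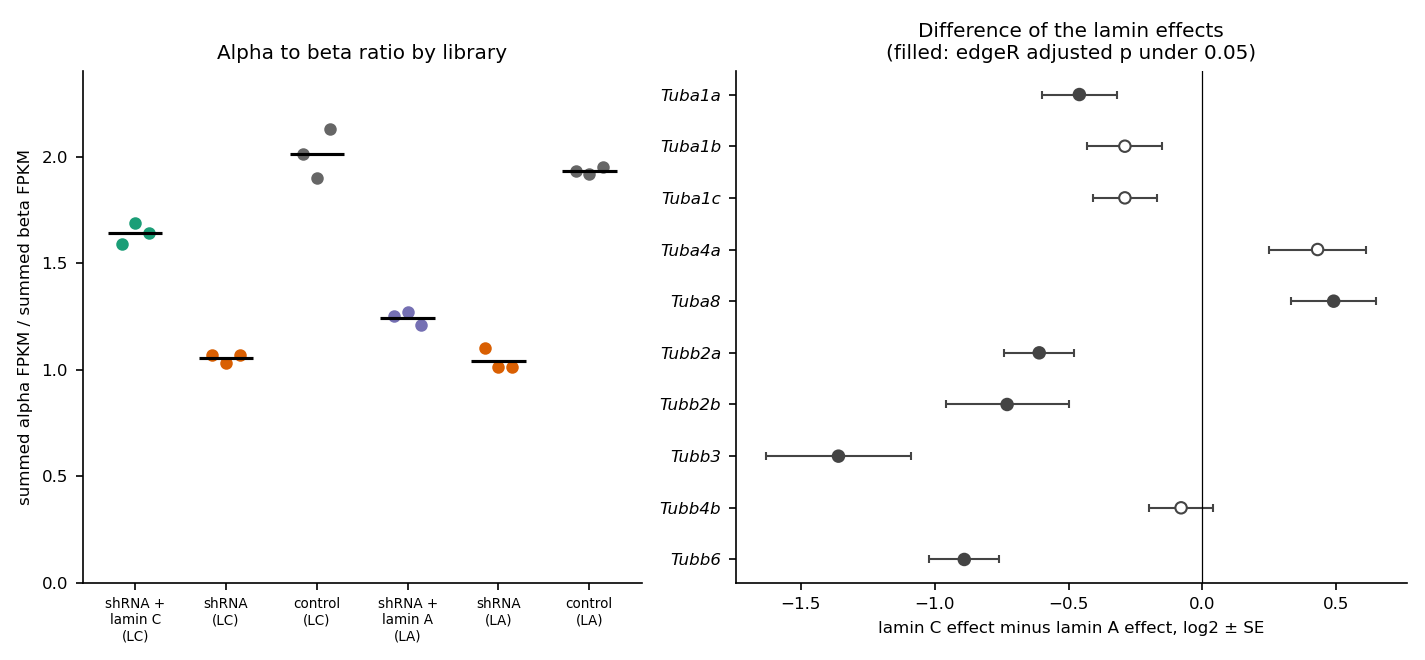
Left, summed alpha FPKM divided by summed beta FPKM in each library (points) with group means (lines), vertical axis from 0. Right, the lamin C effect minus the lamin A effect for each isotype on the log2 scale, with SE bars and filled points for an edgeR adjusted p under 0.05. Ratios were 1.59 to 1.69 in lamin C hearts and 1.21 to 1.27 in lamin A hearts, and Tubb3 showed the lowest difference, at -1.36.

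The changes altered which tubulin mRNA dominated. In control hearts of batch LC the order by mean FPKM was Tuba4a (127), Tubb4b (78.4), Tuba8 (63.1), Tuba1b (43.3), Tuba1a (26.3), Tubb2a (13.2), Tubb6 (9.27), Tuba1c (8.63), Tubb2b (1.21) and Tubb3 (0.437). Of neighbours in that order, Tubb6 and Tuba1c overlapped between libraries and the others did not. In shRNA hearts of batch LC the order was Tubb4b (79.6), Tuba1a (75.1), Tuba1b (65.4), Tubb2a (37.9), Tuba4a (37.6), Tubb6 (17.8), Tuba8 (17.7), Tuba1c (14.6), Tubb2b (6.37) and Tubb3 (5.5). There the first 3 overlapped as neighbours, as did Tubb2a with Tuba4a, Tubb6 with Tuba8, Tuba8 with Tuba1c, and Tubb2b with Tubb3. Tubb5, which these orders leave out, averaged 28.8 FPKM in control and 49.9 FPKM in shRNA hearts of batch LC.

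Tuba4a made up 40.9% ± 1.08 of summed alpha FPKM in lamin C, 17.8% ± 2.73 in shRNA and 47.2% ± 2.7 in control hearts of batch LC, and 34.4% ± 2.47 in lamin A, 19.8% ± 1.27 in shRNA and 49% ± 1.49 in control hearts of batch LA (SD, n = 3 each). Tuba1a made up 12.7% ± 1.12 in lamin C, 35.9% ± 4.81 in shRNA and 9.87% ± 1.21 in control hearts of batch LC, and 16.6% ± 2.08 in lamin A, 33.1% ± 2.08 in shRNA and 10.7% ± 1.05 in control hearts of batch LA (SD, n = 3 each). In shRNA hearts the leading alpha mRNAs were therefore Tuba1a and Tuba1b, and in the other groups Tuba4a, whose mRNA encodes no final tyrosine, led. Tubb4b made up 70% ± 1.79 of the summed FPKM of the 5 beta isotypes in lamin C, 54.3% ± 1.66 in shRNA and 76.4% ± 1.98 in control hearts of batch LC, and 58.5% ± 2.2 in lamin A, 53% ± 0.76 in shRNA and 74.3% ± 0.433 in control hearts of batch LA (SD, n = 3 each). Its share was lower in shRNA hearts although its level was not, since the other beta isotypes were higher. The widely expressed Tubb5, which is not among the 10, made up 22.1% ± 0.869, 25.1% ± 1.37 and 21.6% ± 1.27 of all beta FPKM in lamin C, shRNA and control hearts of batch LC, and 21.5% ± 0.499, 22.9% ± 0.924 and 20.8% ± 0.902 in lamin A, shRNA and control hearts of batch LA (SD, n = 3 each).

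**Figure D4:**
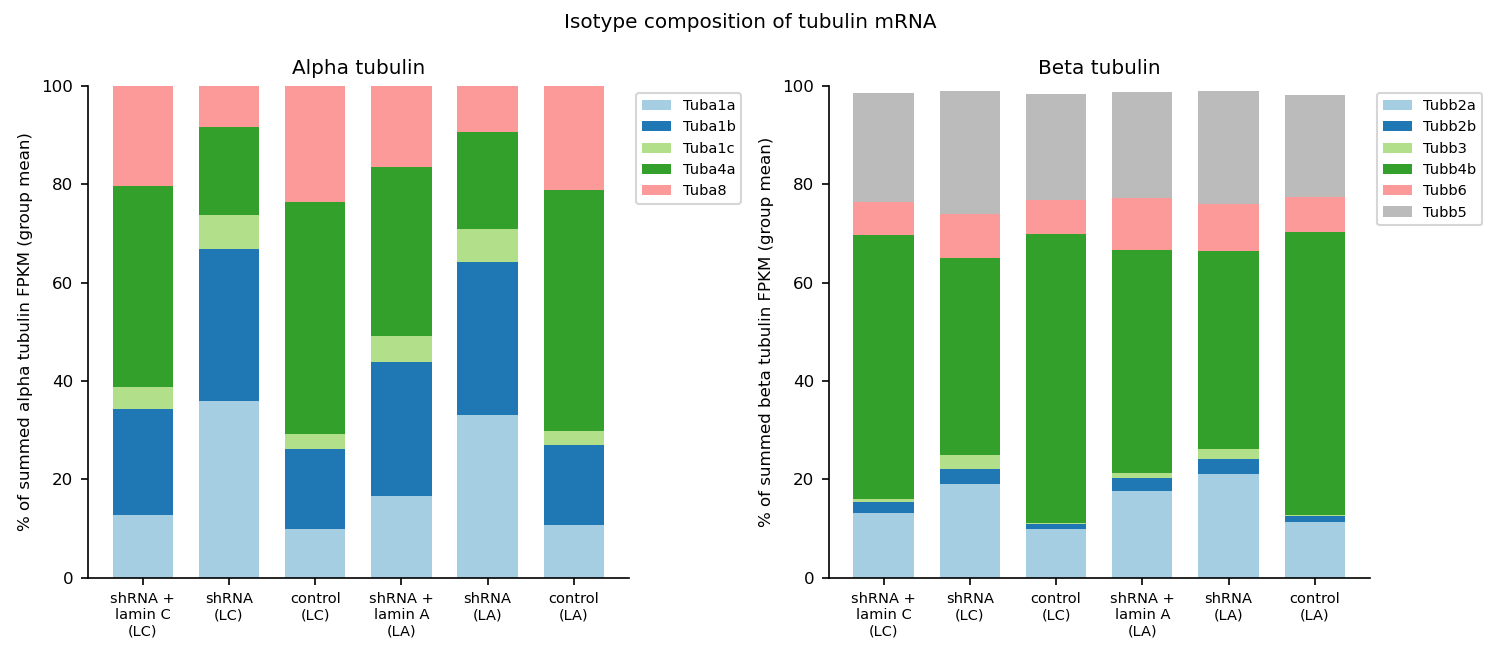
Stacked bars give each isotype's mean percent of the summed alpha (left) or beta (right) FPKM per group, with lamin, shRNA and control hearts of batch LC left of those of batch LA. Tubb5 is drawn in grey, and what is missing to 100 belongs to rarer genes. Tuba4a made up 17.8% in shRNA hearts and 47.2% in control hearts of batch LC, and 34.4% in lamin A hearts.

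Summed over each family, alpha and beta tubulin also diverged. Summed alpha FPKM was 255 ± 17 in lamin C, 210 ± 28.7 in shRNA and 268 ± 20.7 in control hearts of batch LC, and 270 ± 11.7 in lamin A, 229 ± 6.93 in shRNA and 241 ± 10.2 in control hearts of batch LA (SD, n = 3 each). Summed beta FPKM over all beta genes of the table was 156 ± 7.26 in lamin C, 199 ± 26.4 in shRNA and 133 ± 9.34 in control hearts of batch LC, and 217 ± 6.51 in lamin A, 220 ± 3.74 in shRNA and 125 ± 6.46 in control hearts of batch LA (SD, n = 3 each). The alpha to beta ratio was 1.64 ± 0.052 in lamin C, 1.06 ± 0.02 in shRNA and 2.01 ± 0.11 in control hearts of batch LC, and 1.24 ± 0.029 in lamin A, 1.04 ± 0.049 in shRNA and 1.93 ± 0.019 in control hearts of batch LA (SD, n = 3 each). Neither batch had overlapping groups in this ratio, which lay nearest to 1 in shRNA hearts. A ratio of mRNA levels is not a ratio of proteins.

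Over the 18 libraries, the protein-coding genes most like Tuba4a in log2 CPM, among 14618, were Tuba8 (Pearson r = 0.989), Klhl31 (0.984) and Dnaja3 (0.983). Those most like Tubb3 were Ddah2 (0.989), Ftl1 (0.986) and Anxa7 (0.986), and those most like Tubb4b were Erh (0.875), Txndc12 (0.851) and Ran (0.847). These correlations describe libraries that share their group structure and depth.

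Other genes that act on tubulin were read from lists, and each count below stands against the shares of all genes called: 62.9% and 61.4% with shRNA in batches LC and LA, 54.1% with lamin C and 29.8% with lamin A against shRNA. Of 6 other tubulin genes tested of 10 listed, 2 rose and 2 fell with shRNA in each batch. Tubb5 rose by 0.8 ± 0.07 and 0.97 ± 0.07 on the log2 scale in batches LC and LA (edgeR adjusted p = 6.78e-09 and 5.55e-10), and Tubg2, a gamma tubulin, by 0.79 ± 0.19 and 0.71 ± 0.18. The major gamma tubulin Tubg1, which nucleates microtubules, fell by 0.54 and 0.46, and the delta tubulin Tubd1 by 0.59 and 0.66. Of 21 folding genes (prefoldin, the CCT chaperonin and cofactors), 5 rose and 5 fell in batch LC and 10 rose and 5 fell in batch LA. Among those that rose, the CCT subunit Cct8 stood at 0.44 ± 0.05 and 0.64 ± 0.05 and the cofactor Tbcb at 0.48 ± 0.08 and 0.44 ± 0.08. Among those that fell, Arl2 stood at -0.47 ± 0.06 and the prefoldin subunit Pfdn6 at -0.43 ± 0.06 in batch LC, and Tbcel at -0.42 ± 0.08 in batch LA. The median of the folding genes was 0.04 and 0.08 in batches LC and LA, near that of all genes. With lamin C against shRNA 3 of them rose and 6 fell, and with lamin A 1 rose and 1 fell.

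Of 3 genes of tubulin mRNA autoregulation, 1 rose and 2 fell with shRNA in batch LC, and 0 rose and 2 fell in batch LA, by edgeR. With shRNA, Ttc5 was 0.21 ± 0.07 and 0.11 ± 0.07 in batches LC and LA (edgeR adjusted p = 0.018 and 0.18). Its partner Scaper fell by 0.45 and 0.6, and Cnot11, which ties it to the deadenylase complex, by 0.25 and 0.32. Among 4 genes of the tyrosination cycle found in the table of 5 listed, Vash1, a vasohibin that removes the tyrosine, fell by 0.63 and 0.32 in batches LC and LA (edgeR adjusted p = 0.000139 and 0.0224). Vash2, the second vasohibin, stood at low levels, with means of 0.205 and 0.113 FPKM in shRNA and control hearts of batch LC and 0.212 and 0.0905 FPKM in shRNA and control hearts of batch LA. It rose by 0.85 ± 0.32 and 1.23 ± 0.33 (edgeR adjusted p = 0.0275 and 0.00315). Their partner Svbp was 0.32 ± 0.09 and 0.1 ± 0.09 in batches LC and LA (edgeR adjusted p = 0.00382 and 0.35). Ttl, the ligase that restores the tyrosine, was -0.14 ± 0.07 and -0.1 ± 0.07 (edgeR adjusted p = 0.068 and 0.189). With lamin C against shRNA, Vash1 rose by 0.51 ± 0.12 and Svbp fell by 0.24 (edgeR adjusted p = 0.00141 and 0.0241), and with lamin A none of the 4 was called, Vash1 standing at 0.26 ± 0.12 (edgeR adjusted p = 0.1). Of 3 acetylation genes 2 rose in each batch with shRNA: the deacetylase Hdac6 by 0.51 ± 0.07 and 0.47 ± 0.07, and the acetyltransferase Atat1 by 0.24 ± 0.1 and 0.25 ± 0.1.

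Of 12 genes tested of 18 listed that add or remove glutamate or glycine chains, 4 rose and 4 fell in batch LC and 3 rose and 6 fell in batch LA. Ttll1, the catalytic part of a glutamylase, fell by 2.17 in batch LC and by 2.01 in batch LA (edgeR adjusted p = 1.23e-12 and 3.06e-12), and Agtpbp1, a deglutamylase, fell by 1.27 and 1.16. Among those that rose, Ttll7 stood at 1.06 ± 0.16 and 0.97 ± 0.15 and Ttll12 at 0.74 ± 0.07 and 0.58 ± 0.07 in batches LC and LA. With lamin C against shRNA Ttll1 rose by 1.63 ± 0.1 and Agtpbp1 by 1.03 ± 0.08, and with lamin A by 0.42 ± 0.1 and 0.46 ± 0.08. In lamin A hearts Ttll1 was still -1.59 ± 0.1 against control (edgeR adjusted p = 3.06e-10), and in lamin C hearts -0.54 ± 0.09 (edgeR adjusted p = 0.000641).

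Of 32 genes tested of 33 listed that bind, stabilise, tip or sever microtubules, 10 rose and 7 fell in batch LC and 11 rose and 9 fell in batch LA with shRNA, where 62.9% and 61.4% of all genes were called, so the share called was near that of all genes. Map6, a stabilising protein, rose by 2.27 ± 0.11 and 2.41 ± 0.11, Map1a by 2.38 ± 0.18 and 2.45 ± 0.18, and Map1b by 1.83 ± 0.12 and 1.63 ± 0.11 in batches LC and LA. Mapt, which encodes tau, fell by 1.04 and 0.98. With lamin C against shRNA 9 rose and 11 fell, and with lamin A 6 rose and 6 fell. Map6 fell by 1.69 with lamin C and 0.84 with lamin A, and Mapt rose by 0.79 ± 0.07 and 0.5 ± 0.07. Of 19 kinesin and dynein genes 13 rose and 5 fell with shRNA in each batch, where 33.3% and 32.4% of all genes were called higher in batches LC and LA. The kinesin Kif1a, a carrier best known from axons, rose by 3.95 ± 0.28 and 3.31 ± 0.25 from low levels. In shRNA and control hearts its means were 1.39 and 0.0903 FPKM in batch LC and 1.58 and 0.159 FPKM in batch LA. The dynein light chain Dynll1 rose by 1.75 ± 0.11 and 1.66 ± 0.11, while its copy Dynll2 fell by 1.01 and 0.96. With lamin C against shRNA 3 motor genes rose and 13 fell, and with lamin A 3 rose and 12 fell. Dynll2 rose by 0.78 ± 0.05 with lamin C and by 0.31 ± 0.05 with lamin A, and Dynll1 fell by 1.24 and 0.69.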

How the data were processed

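Poly(A) RNA from the mouse heart apex was sequenced in 18 directional libraries, per the labels' protocols. The count values are whole numbers per gene as deposited by the authors. The FPKM values were also deposited by the authors, and how their library size was set is not stated in the labels. The submitters' processing notes name, without roles, DESeq2 1.20.0, StringTie 1.3.3b, HISAT2 2.0.5 and featureCounts 1.5.0-p3, and the genome build mm10. Groups came from the treatment labels.

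Counts were fitted with edgeR 4.0.16 in R 4.3.3: filterByExpr (17876 of 54532 genes), TMM scaling, 1 mean per group over all 18 libraries (12 residual degrees of freedom), quasi-likelihood tests and Benjamini-Hochberg adjustment over all genes tested, threshold 0.05. The fit was checked on simulated counts in which only a small set of genes changed. That setting is unlike these data, so the check does not bear on the choice of scaling. Alternatives were RLE factors, library totals, no filter, DESeq2 1.42.0, limma 3.58.1 on log2(FPKM + 1) and log2(FPKM + 0.1) for genes with FPKM of at least 1 in 3 libraries, mitochondrial genes removed, compared groups alone, a replicate block and each library left out. No 2 libraries of a group were duplicates. CPM used TMM-scaled library sizes, which put a floor of 3 counts between 0.0622 and 0.108 CPM; it covers counting error only. Coding sequences came from GENCODE M21 and promoters from RefSeq.

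The 10 genes and all lists were chosen with earlier results of these data known. All 10 are named; from each list up to 4 called genes of smallest adjusted p per comparison could be named, plus Ttl, Vash1, Vash2, Svbp, Ttc5 and Lmna. Genes of like pattern were the 3 of highest r for the most abundant alpha and beta member and for the member of widest range. Marker lists covered cardiomyocytes, fibroblasts, endothelium, macrophages, smooth muscle with pericytes (3 of 7 higher and 3 lower with shRNA in each batch), Schwann cells with neurons, and proliferating cells.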

Additional observations from a re-analysis of the deposited data

Results flagged for a closer look

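By an edgeR test of the difference itself, the following isotypes changed differently with lamin C in batch LC and with lamin A in batch LA. Batch and lamin cannot be told apart in this test. The Tubb2b, Tuba1a and Tuba8 calls were lost in 7, 5 and 6 of 12 fits with 1 library left out. For the lamin effects against shRNA hearts, the lamin C effect minus the lamin A effect was -1.36 for Tubb3, -0.89 for Tubb6, -0.73 for Tubb2b, -0.61 for Tubb2a, -0.46 for Tuba1a and 0.49 for Tuba8 on the log2 scale (edgeR adjusted p = 0.00144, 0.000154, 0.0321, 0.00321, 0.0266 and 0.0349). For Tuba8 the shRNA effect in batch LC minus that in batch LA was -0.58 ± 0.16 (edgeR unadjusted p = 0.00157, adjusted p = 0.62). Against control hearts its lamin C value minus its lamin A value was -0.09 ± 0.15.

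For what remained against control hearts, the lamin C value minus the lamin A value was called for 7 isotypes, all lower with lamin C, where 14.6% of all genes were called. It was -1.86 ± 0.39 for Tubb3, -1.18 ± 0.14 for Tubb6, -0.78 ± 0.14 for Tubb2a, -0.6 ± 0.12 for Tuba1c and -0.57 ± 0.14 for Tuba1b (edgeR adjusted p = 0.00371, 4.57e-05, 0.00102, 0.00314 and 0.00934). For Tuba1a it was -0.49 ± 0.14 and for Tubb4b -0.36 ± 0.12 (edgeR adjusted p = 0.0247 and 0.0455). The Tuba1a call was lost without any of 4 libraries (control replicate 2 and lamin C replicate 2 of batch LC, control replicate 3 and lamin A replicate 3 of batch LA), at an edgeR adjusted p of 0.0599 to 0.0776. The Tubb4b call was lost without any of 9 libraries (control replicates 1 and 2 and lamin C replicates 1 and 3 of batch LC, control replicates 1 and 3 and all 3 lamin A libraries of batch LA), at an edgeR adjusted p of 0.0531 to 0.134, and also with RLE size factors (edgeR adjusted p = 0.0539), limma on either FPKM scale (adjusted p = 0.052 and 0.0533) and without mitochondrial genes (edgeR adjusted p = 0.0516). The corresponding differences were -0.63 ± 0.27 for Tubb2b, 0.06 ± 0.18 for Tuba4a and -0.09 ± 0.15 for Tuba8 (edgeR adjusted p = 0.137, 0.858 and 0.765). The Tubb2b difference was called with no filter (-0.63, edgeR adjusted p = 0.0134) and with the compared groups alone (-0.62, edgeR adjusted p = 0.0257). Both comparisons use the same lamin libraries.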

How the results depend on the processing

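Over the 6 comparisons between 2 groups, 43 of 48 isotype calls were kept under every alternative and with each library left out, while of 12 values not called 4 stayed uncalled throughout. Scaling by library totals moved the median log2 fold change of all genes to 0.47 and 0.48 for shRNA in batches LC and LA, -0.36 and -0.21 for lamin C and lamin A against shRNA, and 0.11 and 0.26 against control. Under that scaling Tubb4b turned to -0.25 for lamin C against shRNA (edgeR adjusted p = 0.00845, against 0.06 with TMM), 5 isotypes were lower for lamin A against shRNA, 0 were lower for lamin A against control and 0 were higher for the lamin C effect minus the lamin A effect. The higher share of all calls became 81.2% and 82.4% for shRNA in batches LC and LA (52.9% and 52.7% with TMM), 20.2% and 17.1% for lamin C and lamin A against shRNA (47.5% and 54.1%), 90.8% and 81.3% against control (58.9% and 52.2%), 25.2% for the difference of lamin effects (47.2%) and 22.3% for the difference against control (49.8%).

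With no filter 2 isotypes were lower for lamin C against control, 2 higher for the lamin C effect minus the lamin A effect and 2 lower for the difference in shRNA effect, where 160 genes were called higher and 87 lower (3 and 5 by DESeq2, 1 and 0 by edgeR with the filter). With the compared groups alone 2 were lower for lamin A against control and 0 higher for the difference of lamin effects. With libraries left out, the isotypes lower for lamin C against control numbered 0 to 1, those lower for lamin A against control 0 to 1, and those higher and lower for the difference of lamin effects 0 to 2 and 3 to 7. All genes lower for lamin C against control numbered 441 to 709 without control replicate 1 or lamin C replicate 1 or 3 (1105 with all), those higher for the difference against control 858 without lamin C replicate 2 (1303 with all), and those differing in the shRNA effect were 25 higher and 22 lower without control replicate 3 of batch LC, and 2 higher without shRNA replicate 3 of batch LC. The Tuba1b call for lamin C against shRNA was lost by limma (-0.23, adjusted p = 0.059 and 0.0595) and with the compared groups alone (-0.24, edgeR adjusted p = 0.114). Over all beta genes, Tubb4b's share was 53.6%, 40.1% and 58.7% in lamin C, shRNA and control hearts of batch LC and 45.2%, 40.3% and 57.6% in lamin A, shRNA and control hearts of batch LA.

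Same-numbered libraries did not deviate together (r of -0.046 to 0.062 over 18 pairs), and a library correlated best with its own number in 8 of 36 cases, so the numbers do not pair the samples. With the replicate block the Tuba1a value for lamin C against control was 0.3 (edgeR adjusted p = 0.0582), and no other isotype call changed. Depth limits Tubb3 in control hearts, at 11 to 30 counts. The cause of these changes was not tested.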
